A study of Papio hamadryas with 14 samples.

Results

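This account describes the messenger RNA signals of genes of the renal brush border, its peptidases and its structural proteins. They were read in baboon (Papio hamadryas) kidney from 60 days of gestation to adult life. The genes listed were MME, ANPEP, DPP4, DPEP1, MEP1A, ALPL, VIL1, EZR and ACY1. Members were all probe sets whose platform annotation gave one of these 9 symbols and no other, which gave 12 probe sets of 7 genes out of 16143 probe sets measured. MME, ANPEP, MEP1A, ALPL and VIL1 had 1 probe set each, DPP4 had 3 and EZR had 4. ACY1 was annotated only on probe sets that also carry another symbol, and DPEP1 was not analysed here.

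RNA came from whole kidney at 60 days of gestation (60dG, 2 arrays), at 90dG, 125dG and 160dG (3 arrays each), and from adults of 6, 12 and 7 years (adult replicates 1, 2 and 3). Fetal replicates are labelled as biological, and no treatment or genotype is given. Each RNA was hybridised to a human array, and mismatches between baboon transcripts and human probes can weaken a signal. Fetal and adult RNA were run on different array types. A whole kidney holds nephrons, collecting ducts, stroma, vessels and blood cells together, so more cells of a type and more RNA per cell cannot be told apart in these signals.

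The brush border is the dense carpet of microvilli on the luminal face of the proximal tubule cell, where most of the filtered load is taken back. Its membrane carries peptidases that cut filtered peptides into amino acids and dipeptides for the transporters beside them, and a phosphatase anchored by a lipid tail. Actin bundles fill each microvillus, villin crosslinks them, and ezrin ties them to the membrane. The same peptidases are known from other cells too: MME and ANPEP from leukocytes, MME from podocytes, and DPP4 from lymphocytes, while ezrin is also a major protein of podocyte foot processes.

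Libraries that stood apart were looked for first. Median signals ranged from 172.9 to 194.3 for fetal and from 210 to 214.1 for adult arrays. The signal ratio of the 3' to the 5' GAPDH control probe sets was 1.78, 2.46 and 3.43 on 90dG replicates 1, 2 and 3, against 1.62 to 1.99 on the other fetal arrays. On 60dG replicate 2 the adrenal steroid enzyme CYP17A1 had a signal of 4960.3, against 8.7 to 182.7 on the other fetal arrays. The summed signal of the 5 adrenal markers measured was 7563.6 on that array, against 220.7 to 520.9 on the other fetal arrays. Values without 60dG replicate 2 stand beside many of the results, though not all. With either 60dG array left out that stage is a single array, assumed to vary like the other stages, so such a standard error and p come from the spread of the later stages.

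MME rose through gestation, and ANPEP had already risen by 90dG. Over the 4 fetal stages, 3 of the 12 probe sets differed in the moderated F test of limma with an adjusted p under 0.05, those of MME, ANPEP and 1 of 4 for EZR. Over all probe sets the same test called 8.0%. For the linear trend over gestation 3 of the 12 were called, all upward, in MME, EZR and ALPL, against 4.11% of all probe sets called and 2.09% called upward. DPP4 and MEP1A were called in no comparison between fetal stages with all 11 arrays in the fit. With either 60dG array left out both tests called fewer probe sets, among the 12 and over all. With 160dG replicate 1 left out the trend called 1 of the 12, MME, and 2.34% of all probe sets. With 90dG replicate 1 left out the F test called 6 of the 12. That fit called 11% of all probe sets, against 8.0% with all arrays.

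**Figure D1:**
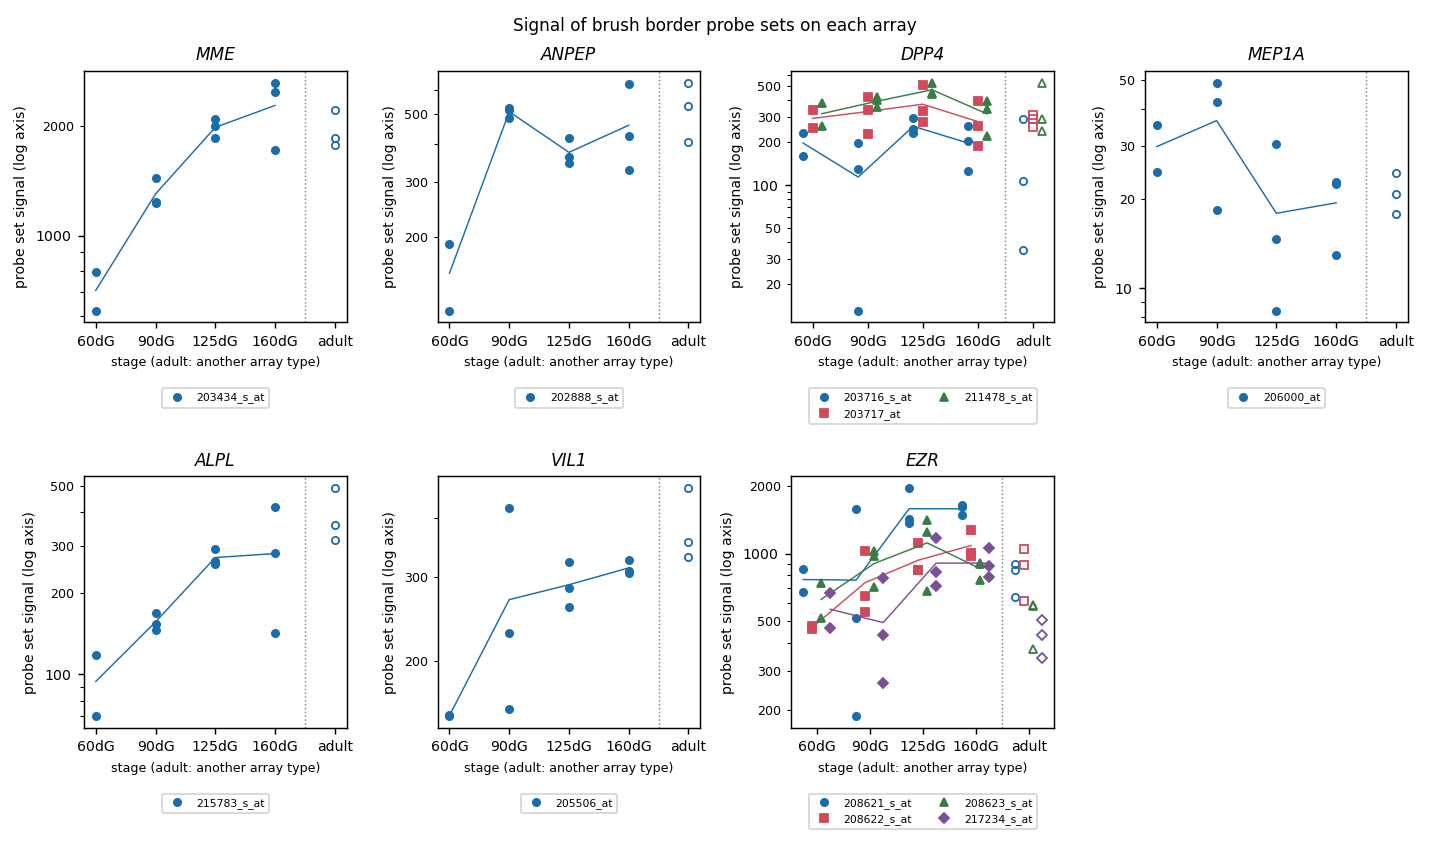
Signal of each of the 12 probe sets on each array, by stage, on a log axis that differs between panels. Points are arrays, lines join the means of the fetal stages, and open symbols to the right of the dotted line are adult arrays of another array type. The MME points climb over the fetal stages, with a highest value of 2637 at 160dG and a lowest of 619.5 at 60dG, while the DPP4 points of 160dG and 60dG cover much the same range.

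The membrane peptidases come first. MME, or neprilysin, is a zinc endopeptidase that inactivates peptides such as natriuretic peptides and bradykinin. Its probe set had signals of 792.7 and 619.5 at 60dG, 1235.3, 1442.9 and 1226.1 at 90dG, 2007.5, 1858.4 and 2090.1 at 125dG, and 2484.1, 1721.3 and 2637.0 at 160dG. Both 60dG arrays lay below every 90dG array, and every 90dG array below every 125dG array. Only the step to 160dG overlapped, through replicate 2, the lowest of its stage.

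The means were 706.1 ± 122 at 60dG (SD, n = 2), 1301 ± 123 at 90dG, 1985 ± 117 at 125dG and 2281 ± 491 at 160dG (SD, n = 3 each). On the log2(signal + 16) scale the difference of 160dG from 60dG was 1.66 ± 0.19 (SE, limma adjusted p = 0.000139), a 3.15-fold change. The slope was 0.16 ± 0.02 log2 per 10 days (SE, limma adjusted p = 0.00074). MME kept these calls and that of the F test when any 1 of the 11 fetal arrays was left out. Without 60dG replicate 2 the difference of 160dG from 60dG was 1.48 ± 0.24 (SE, limma adjusted p = 0.00469).

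ANPEP, or aminopeptidase N, removes single residues from the amino end of peptides. Its signals were 114.8 and 189.6 at 60dG, 524.7, 516.4 and 485.0 at 90dG, 361.6, 347.2 and 417.9 at 125dG, and 424.5, 329.0 and 625.4 at 160dG. Every later array lay above both 60dG arrays. The 90dG arrays formed a tight group above all the 125dG arrays, and those of 160dG spread across both.

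The difference of 90dG from 60dG was 1.68 ± 0.27 on the log2 scale (SE, limma adjusted p = 0.00561), a 3.20-fold change. That of 160dG from 60dG was 1.49 ± 0.27 (SE, limma adjusted p = 0.00446), or 2.81-fold. The linear trend, at 0.10 ± 0.04 log2 per 10 days, did not pass the threshold (limma adjusted p = 0.239). Both differences rest partly on 60dG replicate 1, the lower array of its pair. Without it they were 1.35 for 90dG against 60dG and 1.16 for 160dG against 60dG. Neither was then called, nor was the F test. The 60dG stage was in that fit replicate 2 alone, the array with the high adrenal signals. Without 60dG replicate 2 the differences were 2.00 for 90dG against 60dG and 1.81 for 160dG against 60dG, and both calls were kept.

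DPP4 is a dipeptidyl peptidase that cleaves after a proline or alanine and shortens incretin hormones and chemokines. The brightest of its 3 probe sets, 211478_s_at, had signals of 261.4 and 376.2 at 60dG, 399.3, 416.6 and 354.6 at 90dG, 528.1, 444.9 and 436.4 at 125dG, and 390.8, 220.8 and 342.1 at 160dG. The 125dG arrays were the highest of the 4 stages and overlapped with no other stage, while those of 60dG and 160dG covered much the same range. The difference of 160dG from 60dG was -0.02 ± 0.25 on the log2 scale, with a 95% interval from -0.56 to 0.52. Without 60dG replicate 2 it was 0.23 ± 0.31.

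For 203717_at the same difference was -0.11 ± 0.34, with an interval from -0.84 to 0.61. For 203716_s_at it was -0.03 ± 0.62, with an interval from -1.37 to 1.30. Both also turned positive without 60dG replicate 2, at 0.10 ± 0.44 and 0.21 ± 0.81, so the sign of the DPP4 difference is not fixed in any of its probe sets. The 90dG signals of 203716_s_at were 198.9, 130.7 and 13 on replicates 1, 2 and 3, against 161.4 and 234.6 at 60dG. On the same 90dG replicate 3 the other DPP4 probe sets stayed within reach of their 60dG signals, at 340.9 for 203717_at and 354.6 for 211478_s_at.

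MEP1A encodes the alpha subunit of meprin, a metalloprotease of the kidney and gut brush border. Its probe set was dim on every array, with signals of 24.6 and 35.2 at 60dG, 18.3, 42.3 and 49.0 at 90dG, 8.4, 30.6 and 14.6 at 125dG, and 22.4, 22.8 and 12.9 at 160dG. Its mean over the fetal arrays stood at the 5.3 percentile of all probe sets, and no detection call was used here. The difference of 160dG from 60dG was -0.38 ± 0.44 on the log2 scale, with a 95% interval from -1.32 to 0.57, and -0.21 ± 0.57 without 60dG replicate 2.

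ALPL is the tissue-nonspecific alkaline phosphatase, which the proximal tubule carries on its brush border by a glycolipid anchor. Its signals were 69.9 and 118.5 at 60dG, 169.3, 154.5 and 146.2 at 90dG, 258.0, 292.0 and 264.7 at 125dG, and 282.5, 142.5 and 417.8 at 160dG. The first 3 stages followed each other without overlap. The 160dG arrays spread from below every 90dG array to above every 125dG array.

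The ALPL slope was 0.13 ± 0.04 log2 per 10 days (SE, limma adjusted p = 0.0472). That call is close to the threshold: it held without 160dG replicate 2 and was lost when any 1 of the other 10 fetal arrays was left out, with a limma adjusted p from 0.0559 to 0.168. The difference of 160dG from 60dG was 1.35 ± 0.37, or 2.55-fold, with a limma adjusted p of 0.0505. Without 160dG replicate 2 that p was 0.00642, and without 60dG replicate 2 the difference was 1.67 ± 0.45 (limma adjusted p = 0.0734).

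The structural genes came next. VIL1 encodes villin, the calcium-regulated protein that bundles and severs actin in microvilli. Its signals were 153.2 and 154.4 at 60dG, 419.8, 229.3 and 158.5 at 90dG, 284.8, 260.3 and 322.7 at 125dG, and 326.5, 305.4 and 309.3 at 160dG. The 160dG arrays lay close together, at about the level of the highest 125dG array and well above both 60dG arrays. At 90dG the 3 arrays spanned more than the range of all other fetal arrays, falling in the order in which the GAPDH ratio climbs.

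The difference of 160dG from 60dG in VIL1 was 0.96 ± 0.31 on the log2 scale, a 1.94-fold change that did not pass the threshold (limma adjusted p = 0.11). In other fits it passed at about the same size. The limma adjusted p was 0.0217 with no 90dG arrays, 0.0275 without 90dG replicate 1 and 0.0177, at 0.99, with the GAPDH ratio as a covariate, and the cause was not tested. Without 60dG replicate 2 the VIL1 difference was 0.96 ± 0.41 (limma adjusted p = 0.302).

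EZR encodes ezrin, which links the microvillar membrane to actin. Its brightest probe set, 208621_s_at, was called in no fetal comparison with all arrays in the fit and is given further below. The only EZR probe set called in that fit, 208622_s_at, had signals of 474.7 and 462.8 at 60dG, 1033.3, 550.8 and 645.3 at 90dG, 847.7, 1112.1 and 846.6 at 125dG, and 1282.2, 979.5 and 1004.3 at 160dG. Both 60dG arrays lay below all others. The 90dG arrays spread most, and those of 125dG and 160dG overlapped.

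The difference of 160dG from 60dG for 208622_s_at was 1.18 ± 0.24 on the log2 scale, or 2.26-fold (SE, limma adjusted p = 0.00992), and the slope was 0.11 ± 0.02 log2 per 10 days (SE, limma adjusted p = 0.0123). With either 60dG array left out the call for 160dG against 60dG was lost, at a limma adjusted p of 0.0854 without replicate 1 and 0.074 without replicate 2. The F test, at a limma adjusted p of 0.0273, was lost without either 60dG array (0.112 each) and without 160dG replicate 1 (0.0605). The slope missed the threshold when 60dG replicate 1 (0.0563), 60dG replicate 2 (0.0525) or 160dG replicate 1 (0.05) was left out.

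The other 3 EZR probe sets were also higher at 160dG, and none passed. The log2 differences of 160dG from 60dG were 1.04 ± 0.55 for 208621_s_at (limma adjusted p = 0.367), 0.46 ± 0.28 for 208623_s_at (limma adjusted p = 0.448) and 0.68 ± 0.34 for 217234_s_at (limma adjusted p = 0.343). Without 60dG replicate 2 they were 1.21 ± 0.72, 0.72 ± 0.35 and 0.43 ± 0.44 in the same order. In each of them both 60dG arrays lay below all 160dG arrays. With no 90dG arrays the limma adjusted p of 208621_s_at was 0.00586 at the same difference.

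For 160dG against 60dG as a whole, 3 of the 12 probe sets were called, all higher at 160dG (MME, ANPEP and EZR 208622_s_at), against 4.83% of all probe sets called and 2.77% called higher. The median difference of the 12 was 0.82 on the log2 scale, and that of all probe sets 0.00. The arrays of the 2 stages did not overlap for 9 of the 12, against 34.8% of all probe sets, with 160dG the higher in all of these but MEP1A. In the fit without 90dG replicate 1 limma called 5.84% of all probe sets. Of the 12, that fit called 5. With either 60dG array left out fewer probe sets were called, among the 12 and over all.

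**Figure D2:**
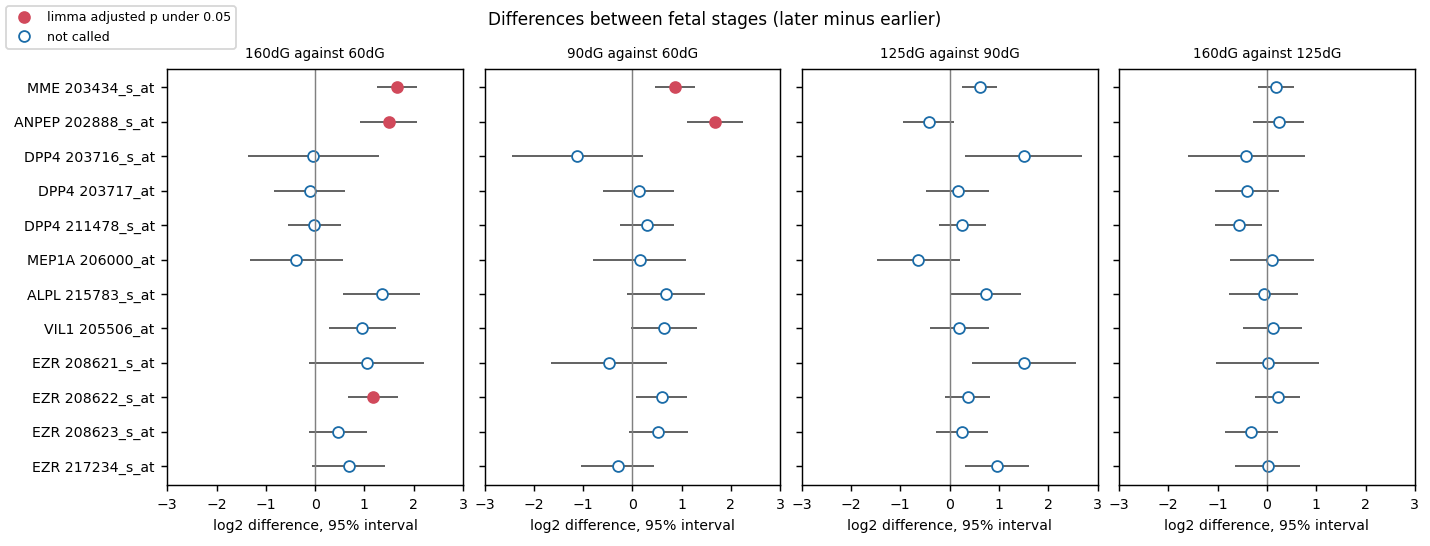
Log2 difference of each probe set between fetal stages, later minus earlier, with its 95% interval from limma. Filled points passed an adjusted p under 0.05. MME stands at 1.66 and ANPEP at 1.49 in the comparison of 160dG with 60dG, and in the steps after 90dG all 12 points are open.

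The steps between stages place the changes. Between 60dG and 90dG 2 of the 12 probe sets were called, MME and ANPEP, both higher at 90dG, against 3.86% of all probe sets called and 2.04% called higher. The MME difference was 0.87 ± 0.19 on the log2 scale, or 1.83-fold (SE, limma adjusted p = 0.0244). That call did not survive the omission of 60dG replicate 1 (limma adjusted p = 0.0815), of 60dG replicate 2 (0.186) or of 90dG replicate 2 (0.0736). With the GAPDH ratio as a covariate MME was not called (0.0665) and VIL1 was, at 1.19 (limma adjusted p = 0.0394). Without 60dG replicate 1, with 60dG then a single array, the log2 differences were 1.05 for MME and 1.35 for ANPEP. Fewer probe sets were called in that fit, among the 12 and over all. The arrays did not overlap for 5 of the 12, against 34.3% of all probe sets.

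The direction of EZR probe sets 208621_s_at and 217234_s_at was not fixed in this step. For 217234_s_at the log2 difference of 90dG from 60dG was -0.30 with all arrays (limma adjusted p = 0.691). It was 0.06 without 90dG replicate 3 (limma adjusted p = 0.947) and 0.22 with the GAPDH ratio as a covariate (limma adjusted p = 0.787). In 208621_s_at 90dG differed from 60dG by -0.48 on the log2 scale with all arrays (limma adjusted p = 0.689), and without 90dG replicate 1 it was called lower at 90dG, at -1.24 (limma adjusted p = 0.0454). The difference was positive without 90dG replicate 3, at 0.25 (limma adjusted p = 0.795), and with the GAPDH ratio as a covariate, at 0.72 (limma adjusted p = 0.241). With 90dG replicate 1 alone for its stage it was 1.04 (limma adjusted p = 0.0612).

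Between 90dG and 125dG limma called none of the 12, against 2.34% of all probe sets called. An unadjusted p under 0.05 was found for 5 of the 12, against 18.5% of all probe sets. MME was 0.61 ± 0.17 higher on the log2 scale at 125dG (limma adjusted p = 0.0738), and passed at the same size without 160dG replicate 2 (limma adjusted p = 0.0483). ANPEP was 0.43 ± 0.24 lower at 125dG, and that difference did not pass (limma adjusted p = 0.369). Without 90dG replicate 1 there were 3 calls, all higher at 125dG: EZR 208621_s_at at 2.27 (limma adjusted p = 0.00153), EZR 217234_s_at at 1.35 (0.00867) and DPP4 203716_s_at at 2.07 (0.0358). Those 3 probe sets had the lowest signals on 90dG replicate 3 relative to replicate 1. The fit without 90dG replicate 1 called 6.16% of all probe sets for this step. The arrays did not overlap for 5 of the 12, against 22.7% of all probe sets.

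Between 125dG and 160dG limma called none of the 12, against 0.0310% of all probe sets. An unadjusted p under 0.05 was found for 1 of the 12, against 6.28% of all probe sets. That member was DPP4 211478_s_at, 0.57 ± 0.22 lower on the log2 scale at 160dG (limma adjusted p = 0.7). It was also the 1 probe set of the 12 whose arrays did not overlap, against 12.9% of all probe sets. The median difference of the 12 was 0.02, the same as that of all probe sets.

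Among the 90dG arrays the EZR probe sets disagreed. Signals of 208621_s_at were 1583.7, 516.5 and 187.7 on replicates 1, 2 and 3, and those of 217234_s_at were 779.4, 432.2 and 265.9. For 208623_s_at they were 708.2, 980.6 and 1024.7. The first pair fell in the order of the GAPDH ratio (1.78, 2.46 and 3.43), and the last ran the other way.

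On the log2 scale, replicate 3 minus replicate 1 was -2.97 in 208621_s_at, at the 0.13 percentile of all probe sets, and -2.89 in DPP4 203716_s_at, at the 0.167 percentile. It was -0.01 in MME and -0.11 in ANPEP. The probe positions along each transcript were not used here, and the part of the GAPDH ratio in these values was not tested. Within 160dG, replicate 2 was the lowest of its stage in 10 of the 12 probe sets, against 31.3% of all probe sets.

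**Figure D3:**
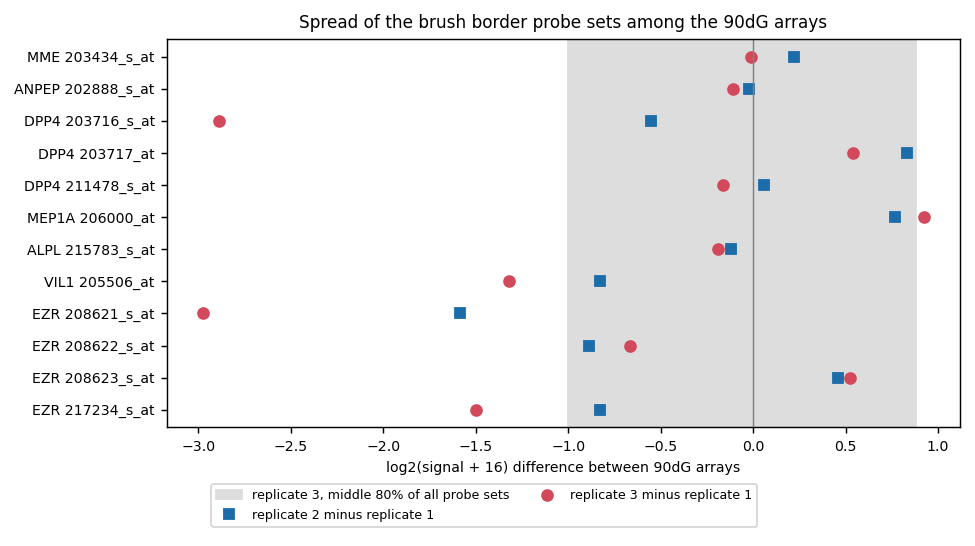
Differences of 90dG replicates 2 and 3 from replicate 1 in each probe set, on the log2(signal + 16) scale. The grey band spans the middle 80% of all probe sets for replicate 3. EZR 208621_s_at and DPP4 203716_s_at lie near -3 for replicate 3, and MME and ANPEP lie near 0.

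Genes whose profile was closest to that of MME and ANPEP were taken from 5276 genes by the root mean square difference of centred log2 values over the 11 fetal arrays. Closest to MME were ANK2 at 0.18, AFM at 0.18 and NDRG2 at 0.20. Closest to ANPEP were TMEM176A at 0.20, SLC5A2 at 0.22 and DAB2 at 0.22. SLC5A2 is the sodium-glucose cotransporter of the early proximal tubule, and DAB2 an endocytic adaptor known from the same cells.

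Other genes of the brush border and apical microvilli were read beside the members. Of 40 listed, 24 were measured, and limma called 6 of them in the F test, 3 for the trend, 5 for 160dG against 60dG and 3 for 90dG against 60dG. Every trend or pairwise call was upward with age in the probe set read for each gene. A second probe set of RDX, or radixin, a relative of ezrin, was called lower at 90dG than at 60dG, at -1.65 ± 0.36 (SE, limma adjusted p = 0.0238). The median difference of 160dG from 60dG over the 24 was 0.63 on the log2 scale, with 21 of 24 above 0. Without 60dG replicate 1 limma called 1 in the F test, 1 for the trend, 2 for 160dG against 60dG and 1 for 90dG against 60dG. Without 60dG replicate 2 it called 2 in the F test and 3 for 160dG against 60dG. The F test called 3 without 125dG replicate 1 and 3 with eBayes without trend, a setting that also gave 3 for 160dG against 60dG. With the replicate number as a block the XPNPEP2 trend was not called (limma adjusted p = 0.0635). Its slope was 0.20 log2 per 10 days with all arrays and 0.15 without 60dG replicate 2. The trend called 5 without 160dG replicate 2 and none without 160dG replicate 3, where the limma adjusted p of CDHR5, XPNPEP2 and SLC3A1 lay between 0.0555 and 0.0616.

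XPNPEP2, a membrane aminopeptidase that cuts before proline, had signals of 161.1 and 144.0 at 60dG and between 645.7 and 1172.7 on the later fetal arrays. Its log2 difference of 160dG from 60dG was 2.58 ± 0.25 (SE, limma adjusted p = 4.73e-05), and that of 90dG from 60dG was 2.30 ± 0.25 (limma adjusted p = 0.000481). No later array came near the 60dG pair. A second probe set of the gene gave 1.89 ± 0.43 for 160dG against 60dG (limma adjusted p = 0.0205).

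CDHR5, a cadherin of the links between microvillus tips, had signals of 4.6 and 32.5 at 60dG and of 223.8, 226.5 and 333.0 at 160dG. Its log2 difference was 3.11 ± 0.63 (SE, limma adjusted p = 0.00991), and 0.155 was its limma adjusted p without 60dG replicate 1. Without 60dG replicate 2 the difference was 3.73. Both 60dG signals are dim, so the size depends on the pseudocount: the difference was 4.23 with a pseudocount of 1 (limma adjusted p = 0.0108) and 1.98 with 64 (limma adjusted p = 0.0103). PDZK1, a scaffold that anchors apical transporters, was 1.29 ± 0.21 higher at 160dG than at 60dG (limma adjusted p = 0.00249, and 0.0522 without 60dG replicate 1). It was 1.13 ± 0.21 higher at 90dG than at 60dG (limma adjusted p = 0.0129, and 0.143 without 60dG replicate 1).

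LRP2, the endocytic receptor megalin, was 1.56 ± 0.34 higher on the log2 scale at 160dG than at 60dG (limma adjusted p = 0.0168). Leaving out 60dG replicate 1 gave a p of 0.189, and leaving out 60dG replicate 2 gave 0.0537. SLC3A1, the heavy subunit of the cystine transporter, was 1.90 ± 0.47 higher (limma adjusted p = 0.0339), and its p lay between 0.0521 and 0.176 without either 60dG array, 125dG replicate 1, 160dG replicate 1 or 160dG replicate 3. ACE, the angiotensin-converting enzyme, was called for 90dG against 60dG at 2.35 ± 0.47 (limma adjusted p = 0.0176), with p at 0.157 when 60dG replicate 1 was left out and 0.0527 when replicate 2 was. ENPEP, or aminopeptidase A, with fetal signals of 1286.8 to 4213.8, was 0.87 ± 0.30 higher at 160dG and did not pass (limma adjusted p = 0.126).

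**Figure D4:**
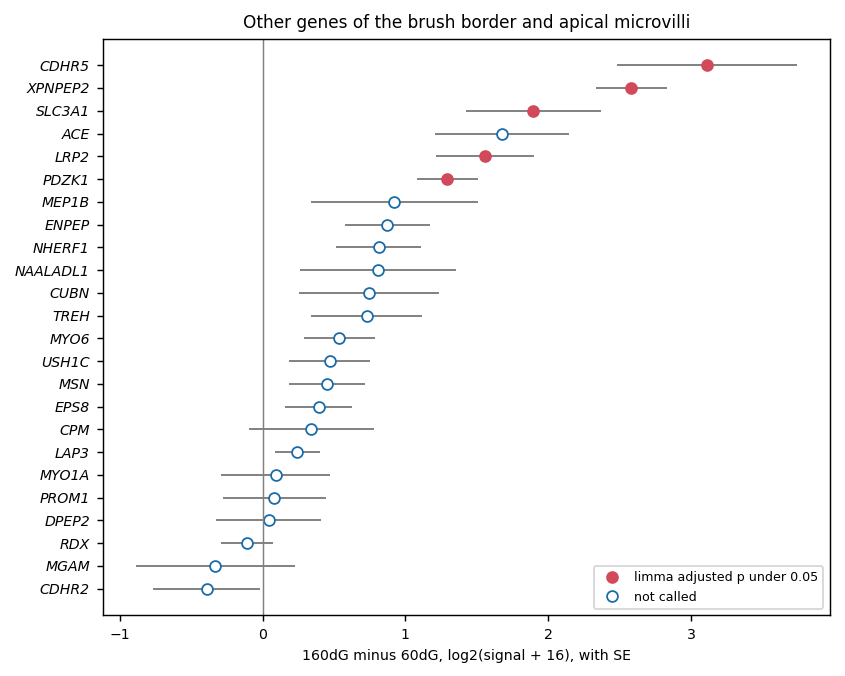
Log2 difference of 160dG from 60dG for the 24 other brush border genes measured, with its standard error from limma. Filled points are the 5 that passed an adjusted p under 0.05. Points above 0 number 21 of 24, with CDHR5 at 3.11, a size that depends on the pseudocount of 16, and XPNPEP2 at 2.58 the farthest out.

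Markers of the proximal tubule were also higher at 90dG and 160dG than at 60dG. Of 18 listed, 15 were measured, and limma called 11 of them for 160dG against 60dG, all higher at 160dG (4 with 60dG replicate 1 left out, 8 with the other 60dG array left out), and 7 for 90dG against 60dG (2 with 60dG replicate 1 left out, 5 with 60dG replicate 2 left out and 4 with 90dG replicate 2 left out). Between 90dG and 125dG limma called none of the 15, with 0 at an unadjusted p under 0.05. Their median difference was -0.02 on the log2 scale. The 12 member probe sets had a median of 0.31 and 5 at that unadjusted p, against 18.5% of all probe sets. Those 5 include EZR 208621_s_at, EZR 217234_s_at and DPP4 203716_s_at, the lowest on 90dG replicate 3 relative to replicate 1. Some members have several probe sets and each of the 15 markers has 1, so the 2 counts are not of like units. The summed signal of the 15 markers was 2883 and 3779 at 60dG, between 8548 and 11815 at 90dG, between 11505 and 12753 at 125dG, and between 9287 and 21094 at 160dG. The lowest 160dG array was replicate 2, the same that was lowest in 10 of the 12 member probe sets. LRP2 stands on both lists, as does CUBN. The part of these markers in the members' changes was not tested.

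Markers of other cells that can carry these proteins were read in the same way. Of 16 leukocyte genes 12 were measured, with a summed signal between 1356 and 1483 at 160dG, against 843 and 1048 at 60dG. For 160dG against 60dG limma called none of them, with 4 at an unadjusted p under 0.05, where 16.9% of all probe sets had such a p. For 90dG against 60dG it called 1, S100A8, a calcium-binding protein of neutrophils and monocytes, which was 1.94 ± 0.40 higher at 90dG on the log2 scale (SE, limma adjusted p = 0.0209). Its p was 0.209 when 60dG replicate 1 was left out and 0.0506 when 90dG replicate 3 was. None was listed at 0, and PTPRC, the pan-leukocyte antigen, was between 18.6 and 73.6 on the fetal arrays. Of 8 podocyte genes 6 were measured, with a summed signal between 3083 and 5489 at 160dG, against 4386 and 2506 on 60dG replicates 1 and 2, and 1 was called, CLIC5, which was 1.16 ± 0.30 higher at 160dG on the log2 scale (SE, limma adjusted p = 0.0422). The CLIC5 call was kept in 4 of the 11 fits with a fetal array left out, with a limma adjusted p of up to 0.2, and was lost when the array omitted was either one at 60dG, replicate 2 at 90dG, or replicate 1 or 3 at 125dG or 160dG.

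Markers of later nephron segments and of stroma changed too. Of 7 genes of the loop, distal tubule and collecting duct 5 were measured, with a summed signal between 3612 and 5493 at 160dG, against 1987 and 2042 at 60dG. For 160dG against 60dG limma called 2, SCNN1A, which encodes the alpha chain of the collecting duct sodium channel ENaC, at 1.83 ± 0.30 on the log2 scale (SE, limma adjusted p = 0.0022), and SLC12A1, the sodium-potassium-chloride cotransporter of the thick ascending limb, at 1.60 ± 0.27 (SE, limma adjusted p = 0.00268). Both calls were kept with any 1 of the 11 fetal arrays left out. Other probe sets of SCNN1A were not called for 160dG against 60dG. Their log2 differences were 1.43 ± 0.58 (SE, limma adjusted p = 0.215) and -0.07 ± 0.56 (SE, limma adjusted p = 0.977). All 7 stromal genes were measured, and 2 were called for that comparison. FOXD1, a transcription factor of the renal stroma, was lower at 160dG, at -1.27 ± 0.24 (SE, limma adjusted p = 0.00565, and 0.0732 without 60dG replicate 1). TCF21 was higher at 160dG, at 0.58 ± 0.16 (SE, limma adjusted p = 0.0474), a call kept in 3 of the 11 fits with a fetal array left out, where the array omitted was 90dG replicate 1, the third at 125dG or the first at 160dG. The part of all these cells in the members' signals was not tested.

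In the adult all 4 EZR probe sets had lower mean signals than at 160dG, while MME, ANPEP, ALPL and VIL1 differed by -0.21 to 0.54 on the log2 scale. Age group and array type cannot be told apart here, and no test was made. Over all probe sets adult minus 160dG had a median of 0.11 on the log2 scale, and the middle 80% ran from -1.04 to 1.20. The median over the 12 members was -0.07, and 6 of the 12 were above 0 (-0.28 and 4 of 12 without 160dG replicate 2). Adult and 160dG arrays did not overlap for 4 of the 12, 1 of them higher (VIL1) and 3 lower (EZR), against 49.1% of all probe sets, 28.1% higher and 21.0% lower. A difference of at least 2-fold was found in 1 of the 12, lower in the adult, against 25.5% of all probe sets, 10.7% lower.

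MME had adult signals of 2221.5, 1858.5 and 1772.1, all inside the range of the 160dG arrays (2484.1, 1721.3 and 2637.0). The log2 difference was -0.21, and it was 0.01 after quantile normalization of all arrays together, so its sign is not fixed. ANPEP had adult signals of 532.8, 632.3 and 406.9, against 424.5, 329.0 and 625.4 at 160dG, with a difference of 0.21. Without 160dG replicate 2 the ANPEP difference was 0.00.

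The 3 DPP4 probe sets differed by -0.72, 0.08 and 0.10, in the order 203716_s_at, 203717_at and 211478_s_at. Adult replicate 3 had a signal of 35.2 for the first of them, and 242.5 for the third. MEP1A stayed dim in the adult, at 24.3, 17.8 and 20.8.

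ALPL had adult signals of 492.2, 359.9 and 316.5, against 282.5, 142.5 and 417.8 at 160dG. Its difference was 0.54, and 0.15 without 160dG replicate 2. VIL1 had adult signals of 461.6, 330.4 and 355.2, against 326.5, 305.4 and 309.3 at 160dG, with no overlap and a difference of 0.26.

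EZR 217234_s_at had adult signals of 506.1, 432.0 and 341.2, against 880.6, 786.2 and 1058.4 at 160dG. The difference was -1.07, so that the 160dG mean was 2.10 times the adult mean on that scale. Those of 208621_s_at, 208622_s_at and 208623_s_at were -0.998, -0.37 and -0.74, and only 208622_s_at overlapped between the 2 ages. All 4 stayed below 0 under the other pseudocounts and after quantile normalization, at -0.20 to -1.01 in the latter setting.

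Summed signals of the marker lists also differed between these ages. The 15 proximal tubule genes summed to between 29005 and 30911 in the adult, against 9287 to 21094 at 160dG, with a median log2 difference of 1.30. The 6 podocyte genes, from cells that also carry ezrin, summed to between 1146 and 1438 in the adult, against 3083 to 5489 at 160dG. By gene 4 of the 6 were at least 2-fold lower in the adult, while PODXL differed by 0.55 and SYNPO by 0.03 on the log2 scale. The 12 leukocyte genes summed to between 2258 and 2515 in the adult, against 1356 to 1483 at 160dG, and the stromal genes had a median log2 difference of -3.01. The part of these differences in the members' values was not tested.

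**Figure D5:**
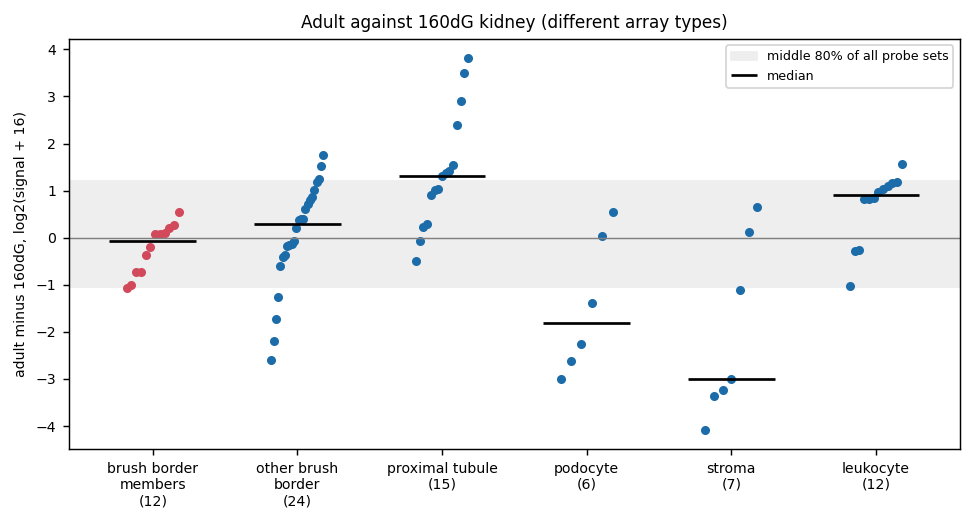
Adult minus 160dG on the log2(signal + 16) scale for the 12 member probe sets and for the genes of each marker list, with the number of probe sets or genes in brackets. Black bars are medians and the grey band spans the middle 80% of all probe sets. The members centre on -0.07, proximal tubule genes on 1.30 and stromal genes on -3.01.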

How the data were processed

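Total RNA from whole kidney was extracted with Trizol and labelled as biotin cRNA, per the labels' protocols. The authors deposited linear signal intensities for each probe set, and the submitters' processing notes name GCOS. Its version, its signal algorithm and any scaling target: not given in the sources used here. The 2% trimmed means were 344 to 352 on the fetal arrays and 330 to 334 on the adult arrays, so values were used without rescaling. No 2 arrays shared more than 0.167% of their values. Precision is limited by the number of arrays. The fetal and adult tables hold the same 16186 probe sets, and 43 controls were left out.

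Gene names came from the platform annotation, which can be old: 14068 probe sets have 1 symbol, 735 several and 1340 none. Members were the probe sets with 1 symbol that is on the list. The representative of a gene with several probe sets was the brightest over the fetal arrays, and list genes were read the same way. Members and lists were chosen with earlier results of these data known, so no p is adjusted over a list alone. Values were taken as log2(signal + 16), which understates the fold change of dim genes. All 16143 probe sets were tested with limma 3.58.1 in R 4.3.3 (lmFit, eBayes with trend) over the 11 fetal arrays, and a call is a Benjamini-Hochberg adjusted p under 0.05. Of the 12 members, 10 had a fetal mean above the median probe set (7.60 as log2), all but MEP1A and DPP4 203716_s_at. Named genes of the other brush border list were those called in any fetal comparison. ENPEP, the second RDX probe set, PTPRC, S100A8, CLIC5, SCNN1A, SLC12A1, FOXD1, TCF21, CUBN and CYP17A1 were named after their values were seen. So were PODXL, SYNPO and the further probe sets of SCNN1A and CLIC5. The method was tested on simulated data. Alternatives were pseudocounts of 1 and 64, a filter at the median, 1 probe set per gene, quantile normalization, eBayes without trend, the replicate number as a block, the GAPDH ratio as a covariate, no 90dG arrays and each array left out. A fit with 90dG replicate 1 alone, the list counts under each setting and the other marker lists with each array left out were added after seeing the data.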

Additional observations from a re-analysis of the deposited data

How the results depend on the processing

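Of the 12 member probe sets, 3 were called for the stages, 3 for the trend, 3 for 160dG against 60dG and 2 for 90dG against 60dG. The shares called over all probe sets were 8.0%, 4.11%, 4.83% and 3.86% in that order. Leaving out each array in turn gave 1 to 6 calls for the stages, 1 to 3 for the trend, 1 to 5 for 160dG against 60dG, 0 to 3 for 90dG against 60dG and 0 to 3 for 125dG against 90dG. The single call left without 60dG replicate 1 for the stages, the trend and 160dG against 60dG was MME, and the 6 calls for the stages came without 90dG replicate 1. The GAPDH ratio as a covariate gave 6 calls for 160dG against 60dG, against 6.11% of all probe sets. With no 90dG arrays there were 5 for that comparison and 5 for the trend, against 5.54% and 5.84% of all probe sets. With 90dG replicate 1 alone, chosen after seeing the data, there were 5 for the stages, 5 for 160dG against 60dG and 1 for 90dG against 60dG. That 1 was VIL1 (limma adjusted p = 0.0421), while MME (0.143) and ANPEP (0.0526) were lost. With eBayes without trend the count for 90dG against 60dG was also 1, with MME lost (limma adjusted p = 0.0973). The step from 125dG to 160dG gave 0 calls in limma in every setting, with 1 at an unadjusted p under 0.05 in the reported fit. The adult median of -0.07 ran from -0.28 to -0.01 with an array left out. No value called with all arrays changed sign in any setting. EZR 208621_s_at for 90dG against 60dG, not called with all arrays, was called at -1.24 without 90dG replicate 1 and was 1.04, not called, with that replicate alone. For the trend and the comparisons between stages, 32 calls of single members were lost and 25 gained over all settings. Calls of the F test are not in these counts, and the cause was not tested.

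The replicate number as a block gave 3, 2, 3 and 2 calls for the stages, the trend, 160dG against 60dG and 90dG against 60dG. Over all probe sets it called 6.21%, 2.86%, 3.86% and 2.32% in the same order. The ALPL trend was lost (limma adjusted p = 0.095). Same-numbered arrays of different stages did not deviate together (median correlation 0.000362 over 15 pairs, against 0.00268 over 30 other pairs), so the numbers were not taken to pair samples. Counts over all probe sets moved by more than 1.5 times in some settings. For 90dG against 60dG the count of 623 was 374 with the replicate block, 320 with the GAPDH covariate, 229 without trend, 212 with 90dG replicate 1 alone and 61 to 1053 with an array left out. For 125dG against 90dG the count of 377 was 53 with the covariate, 78 without trend, 112 with 90dG replicate 1 alone and 28 to 994 with an array left out. For the stages the count of 1292 was 515 without trend, 563 with no 90dG arrays, 766 with 90dG replicate 1 alone and 615 to 1776 with an array left out. For the trend 664 became 410 without trend in eBayes and 370 to 694 with an array left out. For 160dG against 60dG 779 became 315 to 942 with an array left out, and for 160dG against 125dG 5 became 0 to 18.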

Other observations

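Aminoacylase 1, an enzyme of the tubule cell that frees amino acids from their N-acetylated forms, could be read only through probe sets that the annotation shares between symbols. Probe set 202740_at, annotated to ACY1 and to the readthrough ABHD14A-ACY1, had signals of 341.4 and 430.3 at 60dG, 2082.4, 1994.9 and 1468.9 at 90dG, 1373.9, 1125.6 and 1104.1 at 125dG, and 1376.9, 1013.9 and 1785.9 at 160dG. Every later array lay above both 60dG arrays, and every 90dG array above every 125dG array. On the log2 scale 90dG was 2.21 ± 0.23 above 60dG (SE, limma adjusted p = 0.000376), and 160dG was 1.78 ± 0.23 above 60dG (limma adjusted p = 0.000365). The adult arrays, of another type, had 6159.8, 7251.1 and 4352.8. Probe set 210006_at, annotated to ABHD14A and ACY1, had a difference of 0.23 ± 0.19 for 160dG against 60dG (limma adjusted p = 0.629), and its adult signals of 259.8 to 337.9 lay below those of 444.9 to 517.6 at 160dG. Which of the annotated transcripts each probe set reads was not tested.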
